A study of Rattus norvegicus with 29 samples.

Results

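The miR-30 family is a group of microRNAs (miRNAs), short RNAs cut from hairpin precursors, and its members carry the letters a to e. Members were taken as the miRNAs in the deposited count table whose name has the stem miR-30a, miR-30b, miR-30c, miR-30d or miR-30e. This gave 11 of the 754 miRNAs in the table, and the 10 with the highest counts summed over all rats were kept. They were rno-miR-30a-5p, rno-miR-30b-5p, rno-miR-30c-5p, rno-miR-30d-5p and rno-miR-30e-5p from the 5p arms, and rno-miR-30a-3p, rno-miR-30b-3p, rno-miR-30c-1-3p, rno-miR-30c-2-3p and rno-miR-30e-3p from the 3p arms. The 11th, miR-30d-3p, had 1103 counts in 29 rats and was left out, whereas miR-30b-3p, the last one kept, had 1863. The prefix rno- (rat) is dropped below.

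The plasma came from 29 adult male Sprague-Dawley rats at 48 h after lateral fluid-percussion injury, a model of traumatic brain injury (TBI) in which a fluid pulse strikes the exposed dura, or after sham surgery with every step but the impact. Epilepsy was diagnosed months later by video-EEG, which split the injured rats into those without (TBI−) and with epilepsy (TBI+), so these labels describe what the rat later developed and not its state when blood was drawn. The University of Eastern Finland (UEF) gave 4 sham, 4 TBI− and 4 TBI+ rats, Monash University 3, 3 and 2, and the University of California, Los Angeles (UCLA) 3, 3 and 3, or 10 sham, 10 TBI− and 9 TBI+ rats in all. Each library was made from tail-vein plasma of 1 rat drawn under isoflurane into K2-EDTA tubes, and the site of a rat and anything done differently at that site cannot be told apart.

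A miRNA hairpin is cut into a duplex of a 5p and a 3p strand. One strand is usually loaded into an Argonaute protein, where the seed, the bases near its 5′ end, pairs with target messenger RNAs and represses them, and the other strand is usually degraded. The 5p strands of the family share one seed and can therefore pair with many of the same targets, and they are expressed in many tissues, among them epithelia, kidney, heart, liver and brain. In plasma, miRNAs travel bound to proteins or inside vesicles, so more releasing cells and more release per cell cannot be told apart.

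The mature sequences below show which members share a seed and how few bases separate the others. Capitals mark bases 2 to 8, the seed, and the letters are those of RefSeq for the rat assembly GRCr8, which held 6 of the 11 family names.

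miR-30a-5p: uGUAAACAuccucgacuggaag
miR-30e-5p: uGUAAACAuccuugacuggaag
miR-30c-5p: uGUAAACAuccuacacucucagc
miR-30a-3p: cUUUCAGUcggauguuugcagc
miR-30c-1-3p: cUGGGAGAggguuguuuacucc
miR-30c-2-3p: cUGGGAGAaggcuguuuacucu

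All 3 of the 5p strands shown held the same seed. Counting from the 5′ end, miR-30e-5p differed from miR-30a-5p by C13U alone, so reads with an error at that base could be assigned to the wrong one of the pair. miR-30c-5p differed from miR-30a-5p by C13A, G14C, G18C, G19U and A20C over the bases they share. Both miR-30c 3p strands carried a seed of their own and differed by G9A, U12C and C22U. The seed of miR-30a-3p was found in no other miRNA of the table that has a sequence, of which there were 673. The family's own miR-30b-3p, miR-30d-3p and miR-30e-3p had no sequence there, so the search could not show whether they share it.

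The genes lie in pairs. On GRCr8, Mir30c1 (chr5:139634455-139634543) and Mir30e (chr5:139637450-139637541) are on the minus strand with 2906 bases between them, and both lie within the bounds of Nfyc, which encodes a subunit of the transcription factor NF-Y. Mir30a (chr9:33233941-33234011) and Mir30c2 (chr9:33253682-33253765) are on the plus strand with 19670 bases between them, and Mir30c2 lies within the bounds of the long non-coding RNA LOC134480562. Mir30c1 and Mir30c2 give the same miR-30c-5p, so its counts cannot be assigned to one locus, whereas miR-30c-1-3p and miR-30c-2-3p each come from a single one.

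Library totals, the sum of all miRNA counts of a rat, were 1162307 to 5223469 with a median of 2713557. Values are given on 2 scales. The first is the share of all counts of the library, and the second is CPM, the count scaled to a common library size, after scaling by the trimmed mean of M-values (TMM), a factor that centres the bulk of miRNAs between libraries. A read covers a whole mature miRNA, so neither was divided by length. The rat UEF sham 3 stood apart with a TMM factor of 0.333, the lowest of a range reaching 1.76, and with 57.5% of its counts in the liver markers miR-122-5p and miR-192-5p. UEF TBI− 2 had the next lowest factor, 0.644. All markers of red cells (5 miRNAs), liver (2), white cells and platelets (4) and brain (4) were above 0 in every rat. Red cell markers made up 6.82 to 37.1% of counts in sham and 22.0 to 43.1% in TBI rats, liver markers 2.13 to 57.5% and 1.01 to 24.3%, white cell and platelet markers 1.75 to 12.3% and 4.83 to 13.6%, and brain markers 0.112 to 0.914% and 0.550 to 1.23%. The part of liver, white cell, platelet and brain RNA in the results below was not tested, and for red cells a fit with the log2 ratio of miR-451-5p to miR-23a-3p, a measure of red cell lysis, as a covariate is given beside the injury comparisons it moved. By its own qPCR comparison of miR-23a and miR-451, the paper judged no sequenced sample to show red cell lysis. By absorbance, 2 of its pooled samples lay slightly above the limit it set.

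Summed over its 10 members, the family took 3.43 ± 0.543% of all counts (mean ± SD, n = 29), with a range of 2.56 to 4.34%. miR-30d-5p, the 9th most abundant of the 754 miRNAs, supplied 58.7 ± 4.10% of that sum, and miR-30a-5p supplied 19.9 ± 2.48%. The order of the members by share was as follows. miR-30d-5p had 2.03 ± 0.414% of counts, miR-30a-5p 0.685 ± 0.143%, miR-30e-5p 0.497 ± 0.0858% and miR-30c-5p 0.132 ± 0.0398%. The ranges of miR-30d-5p (1.42 to 2.87%) and miR-30a-5p (0.423 to 0.967%) did not overlap, nor did those of miR-30e-5p (0.344 to 0.664%) and miR-30c-5p (0.0711 to 0.252%), whereas miR-30a-5p and miR-30e-5p overlapped.

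The remaining members were scarcer. miR-30a-3p had 0.0308 ± 0.00709% of counts (0.0187 to 0.0513%), below miR-30c-5p in every rat. miR-30b-5p, the one scarce 5p strand, had 0.0237 ± 0.0100%, and miR-30e-3p had 0.0233 ± 0.00447%. These 3 overlapped. The rarest were miR-30c-1-3p with 0.00599 ± 0.00403%, miR-30c-2-3p with 0.00525 ± 0.00238% and miR-30b-3p with 0.00268 ± 0.00173%, which overlapped as well. Counts per rat ran from 23266 to 115713 for miR-30d-5p but only from 21 to 152 for miR-30b-3p, so counting error bears most on the rarest members.

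**Figure D1:**
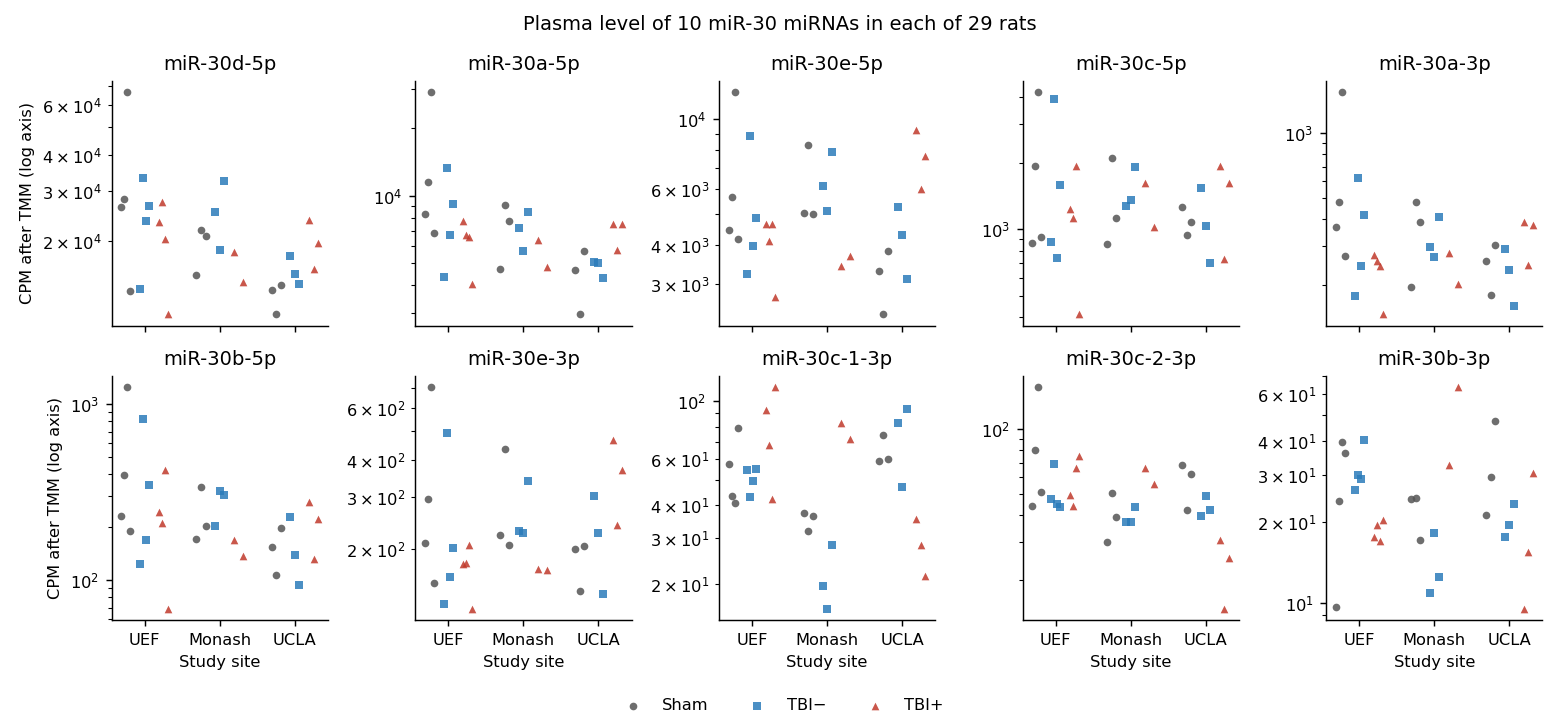
TMM-scaled CPM (log axis) of each of the 10 miR-30 miRNAs in every rat, by study site, with grey circles for sham, blue squares for TBI− and red triangles for TBI+. UEF sham 3 is the highest point for 8 of the 10 members, at 66466 CPM for miR-30d-5p, and TBI+ and TBI− change places between Monash and UCLA for miR-30c-1-3p.

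The spread of the family depended on the scale. Its summed CPM ran from 17942 to 115565, a 6.44-fold range, whereas its share of counts had a 1.69-fold range and the TMM factors themselves a 5.29-fold range. Over the 29 rats the summed CPM had a Spearman correlation of −0.86 with the TMM factor, by which it is divided, so the points share a term. The 7 more abundant members each had a correlation of −0.73 to −0.88 between their CPM and the factor, and of −0.06 to −0.42 between their share of counts and the factor. The 3 rarest differed, with 0.49 for miR-30c-1-3p, 0.11 for miR-30c-2-3p and 0.27 for miR-30b-3p on the CPM scale and 0.73, 0.65 and 0.76 on the share scale.

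**Figure D2:**
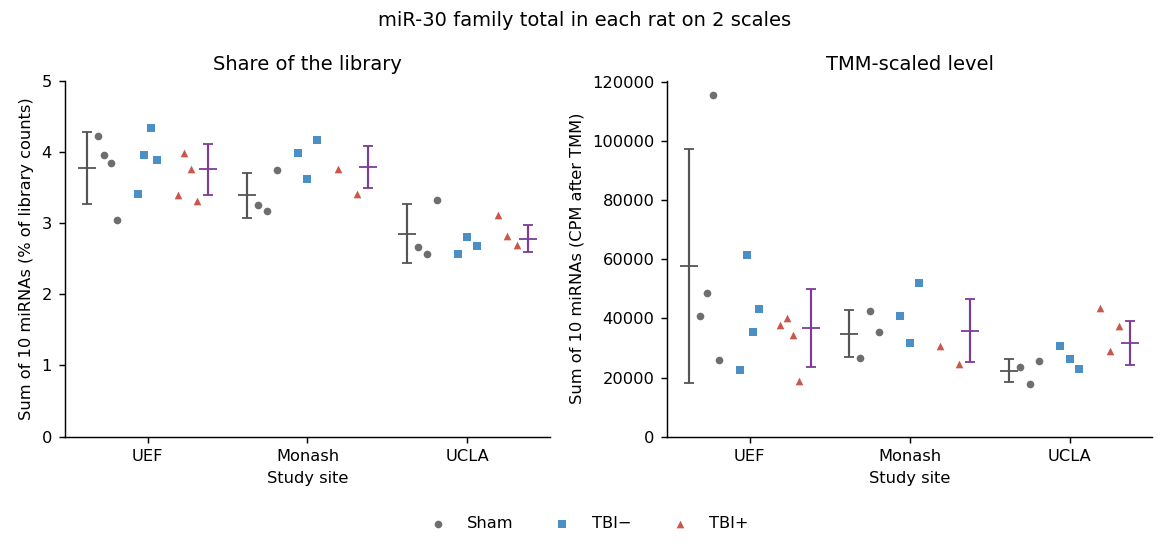
Sum of the 10 miR-30 miRNAs in each rat as % of library counts (left) and as TMM-scaled CPM (right), by study site, with grey circles for sham, blue squares for TBI− and red triangles for TBI+. Bars are mean ± SD of sham rats (grey, left of the points) and of all TBI rats (purple, right of the points), and the share at UCLA (2.56 to 3.33%) lies mostly below that at UEF (3.05 to 4.34%).

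The first comparison asked whether the level of the family differed between study sites, since sampling at several sites can add variation to a plasma biomarker. By share of counts the family was lower at UCLA. The 12 UEF rats had 3.76 ± 0.390%, the 8 Monash rats 3.64 ± 0.348% and the 9 UCLA rats 2.81 ± 0.258%. Of the UEF rats 10 of 12, and of the Monash rats 6 of 8, were above every UCLA rat. In the same order of sites miR-30d-5p had 2.27 ± 0.367%, 2.14 ± 0.320% and 1.60 ± 0.123%, and miR-30a-5p had 0.793 ± 0.105%, 0.694 ± 0.0741% and 0.533 ± 0.0919%. For miR-30d-5p, 11 of 12 UEF rats and 7 of 8 Monash rats were above every UCLA rat.

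On the TMM scale the groups overlapped more. miR-30a-5p had a lowest, median and highest CPM of 4046, 7268 and 29005 at UEF, 4731, 6777 and 9088 at Monash, and 2956, 5091 and 7518 at UCLA. For miR-30d-5p these values were 11055, 24908 and 66466 at UEF, 14385, 19667 and 32457 at Monash, and 11065, 15342 and 23599 at UCLA. For miR-30b-5p they were 68.6, 238 and 1253 at UEF, 138, 204 and 338 at Monash, and 94.1, 154 and 278 at UCLA. In each of these members the UEF and UCLA rats overlapped, and the medians came in the order UEF, Monash, UCLA.

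No member passed an adjusted p of 0.05 in any site comparison. In edgeR's quasi-likelihood test of any difference among the sites, 0 of 10 members were called where 14.8% of the 751 miRNAs tested were. Between UEF and UCLA, 0 of 10 were called (9.32% of all), 4 had an unadjusted p below 0.05 and DESeq2 called 3. These 4 were miR-30b-5p, with a log2 fold change of 1.02 ± 0.37 (SE, 95% interval 0.26 to 1.79, edgeR adjusted p = 0.0919), miR-30a-5p (0.75 ± 0.28, 0.17 to 1.32), miR-30d-5p (0.67 ± 0.25, 0.15 to 1.19) and miR-30c-2-3p (0.64 ± 0.24, 0.16 to 1.13). The adjusted p of the other 3 in edgeR was 0.0976 for miR-30a-5p and miR-30c-2-3p and 0.0983 for miR-30d-5p. These values sat close to the threshold and crossed it under other settings. Scaled by library totals alone, edgeR called miR-30a-5p (log2 fold change 0.57, adjusted p = 0.00101), miR-30d-5p (0.50, adjusted p = 0.00363) and miR-30b-5p (0.76, adjusted p = 0.0227). Without UCLA TBI+ 1 it called 3 members, without UEF TBI+ 4 it called 2, and without UCLA TBI+ 3 it called 1. Liver markers moved the same way, with both called higher at UEF and shares of 1.94 to 57.5% at UEF against 1.01 to 3.40% at UCLA. The other lists had lower median shares at UEF than at UCLA. These were 30.1 and 37.1% for red cells, 6.22 and 8.87% for white cells and platelets, and 0.598 and 0.924% for brain. Of these lists, 1 of 4 brain markers was called, lower at UEF, and no red cell, white cell or platelet marker was.

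Members with an unadjusted p above 0.05 covered a range between UEF and UCLA. miR-30a-3p had a log2 fold change of 0.49 ± 0.31 and miR-30c-5p of 0.42 ± 0.33, whereas miR-30e-5p was at 0.07 ± 0.28 and miR-30e-3p at −0.07 ± 0.30, and members were not tested against each other. The median log2 fold change over the 10 members was 0.45, against 0.07 over all miRNAs tested, and 9 of 10 were above 0. It was 0.23 with library totals (7 above 0) and 0.20 without UEF sham 3 (8 above 0). Between UEF and Monash, edgeR called 0 of 10 members (9.99% of all), 1 had an unadjusted p below 0.05 and DESeq2 called 0. That one was miR-30c-1-3p, at 0.63 ± 0.29 (0.03 to 1.23, edgeR adjusted p = 0.163). The members' median was 0.35 against 0.06 for all, and 0.05 without UEF sham 3. Between Monash and UCLA, edgeR called 0 of 10 (5.46% of all), none had an unadjusted p below 0.05, DESeq2 called 0, and the medians were 0.15 and 0.00.

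The second comparison asked whether injury moved the family in plasma at 48 h, with site in the model. miR-30a-3p had a lowest, median and highest CPM of 178, 336 and 1541 in sham and 146, 267 and 617 in TBI rats, and miR-30c-2-3p had 29.8, 50.7 and 157 in sham and 14.6, 44.1 and 74.8 in TBI rats. Both groups overlapped over most of their range. Between TBI and sham, edgeR called 0 of 10 members (1.2% of all), 1 had an unadjusted p below 0.05 and DESeq2 called 0. miR-30c-2-3p had a log2 fold change of −0.43 ± 0.21 (−0.85 to −0.01, edgeR adjusted p = 0.417) and miR-30a-3p of −0.55 ± 0.27 (−1.09 to 0.00, edgeR adjusted p = 0.452). Without UEF sham 3 these were −0.21 and −0.16, and over all fits with 1 rat left out miR-30c-2-3p ran from −0.51 to −0.21. The most abundant member, miR-30d-5p, was at −0.08 ± 0.22 and miR-30e-5p at −0.04 ± 0.25.

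The direction over the family turned when 1 library was left out, and library totals made its median smaller without turning it. The median log2 fold change over the members was −0.22 against 0.03 for all miRNAs, with 1 of 10 above 0, but it was 0.05 with 6 of 10 above 0 without UEF sham 3, and −0.08 with 4 of 10 above 0 when library totals alone were used. With the red cell lysis ratio in the model it was −0.35 with 1 of 10 above 0. As a share of counts the family took 3.38 ± 0.553% in sham (n = 10) and 3.46 ± 0.551% in TBI rats (n = 19), a difference smaller than the SD of either group over all sites. Within sites, sham and TBI rats had 3.77 ± 0.505 and 3.76 ± 0.360% at UEF, 3.39 ± 0.313 and 3.79 ± 0.300% at Monash, and 2.85 ± 0.414 and 2.78 ± 0.190% at UCLA.

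**Figure D3:**
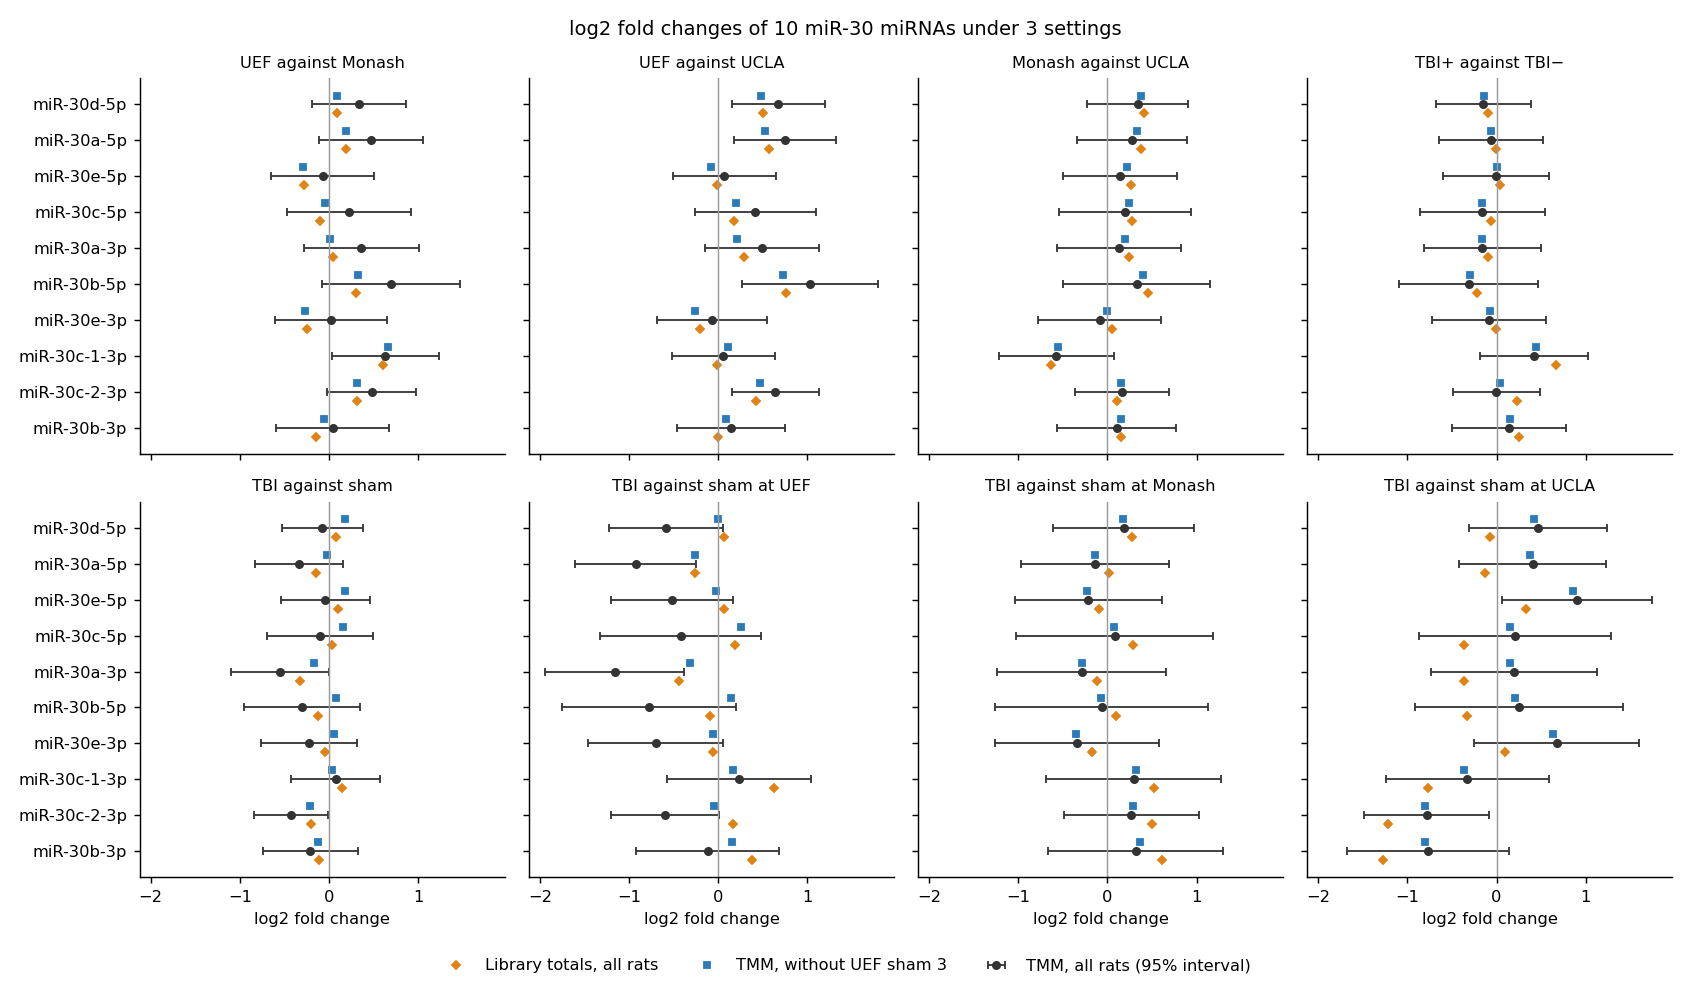
log2 fold change of each of the 10 miR-30 miRNAs in 8 comparisons, with black points and 95% intervals for TMM scaling of all rats, orange diamonds for library totals and blue squares for TMM without UEF sham 3. At UEF the black points of TBI against sham lie left of 0 for 9 of 10 members, and the blue squares centre on −0.01.

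Within sites, the change at UEF on the TMM scale rested on that same rat. The 4 UEF sham rats had 367, 479, 1541 and 270 CPM of miR-30a-3p, and the 8 UEF TBI rats had a lowest, median and highest of 146, 250 and 617. For miR-30a-5p the sham rats had 8295, 11581, 29005 and 6796 CPM and the TBI rats 4046, 6675 and 13369. In CPM the third sham rat was above every injured rat in both, and the other 3 overlapped with them. By share of counts the sham rats had 0.857, 0.944, 0.967 and 0.797% of miR-30a-5p, against 0.657 to 0.861% in TBI rats. UEF sham 2 and UEF sham 3 were both above every injured rat there. For miR-30a-3p the shares were 0.0379, 0.0390, 0.0513 and 0.0317% in sham and 0.0245 to 0.0397% in TBI rats, and only UEF sham 3 was above every injured rat. At UEF, edgeR called 0 of 10 members between TBI and sham (3.86% of all), 2 had an unadjusted p below 0.05 and DESeq2 called 1, miR-30a-3p. The log2 fold change was −1.16 ± 0.38 for miR-30a-3p (−1.94 to −0.39, edgeR adjusted p = 0.0796) and −0.93 ± 0.33 for miR-30a-5p (−1.61 to −0.25, edgeR adjusted p = 0.127). Without UEF sham 3 they were −0.32 and −0.26 (edgeR adjusted p = 0.923 and 0.935), and without UEF TBI− 2 they were −1.25 and −0.96 (edgeR adjusted p = 0.0259 and 0.0464). Leaving out UEF sham 4 also let both pass, and leaving out UEF sham 1 let miR-30a-3p pass.

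Over the 10 members the median at UEF was −0.59 with all rats, −0.01 without UEF sham 3 and 0.07 with library totals, which moved the median of all miRNAs from 0.01 to 0.43. Other lists moved at this site too. Liver markers took 30.5 to 57.5% of counts in UEF sham and 1.94 to 24.3% in UEF TBI rats with 2 of 2 called lower, red cell markers 6.82 to 19.9% and 22.0 to 40.7% with 1 of 5 called higher, and 2 of 4 brain markers were called higher. White cell and platelet markers took 1.75 to 7.27% in UEF sham and 4.83 to 10.5% in UEF TBI rats, with 0 of 4 called. The red cell lysis ratio ranged over −3.57 to −2.81 in UEF sham and −3.05 to −0.87 in UEF TBI rats. When the model held it as a covariate, the members' median at UEF was −1.003, 1 of 10 was above 0, 6 had an unadjusted p below 0.05 and edgeR called 0 (lowest adjusted p = 0.112). The part of liver, white cell, platelet and brain RNA was not tested.

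At UCLA a different pair stood out. The 3 sham rats had 3291, 2405 and 3830 CPM of miR-30e-5p, and the 6 TBI rats had a lowest, median and highest of 3121, 5643 and 9256, and 5 of the 6 were above every sham rat. miR-30c-2-3p went the other way, with 68.3, 42.3 and 61.9 CPM in sham and 14.6, 34.9 and 48.8 in TBI rats. At UCLA, edgeR called 0 of 10 members (0.266% of all), 2 had an unadjusted p below 0.05 and DESeq2 called 0. The log2 fold change was 0.90 ± 0.41 for miR-30e-5p (0.06 to 1.74, edgeR adjusted p = 0.400) and −0.78 ± 0.34 for miR-30c-2-3p (−1.48 to −0.08, edgeR adjusted p = 0.398). Library totals moved the median of all miRNAs at UCLA from 0.02 to −0.47 and that of the members from 0.23 to −0.35, with 5 of 10 members changing direction. The red cell lysis ratio did not overlap between the groups at this site, with a range of −3.32 to −2.55 for sham and of −2.38 to −1.06 for injured rats. Red cell markers took 27.7 to 37.1% of counts in UCLA sham and 35.3 to 43.1% in UCLA TBI rats, and liver markers 2.13 to 3.40% and 1.01 to 2.67%. With it as a covariate the members' median at UCLA was −0.11 with 4 of 10 above 0, where it had been 0.23 with 7 above 0, and the log2 fold change was 0.56 for miR-30e-5p and −0.83 for miR-30c-2-3p (edgeR adjusted p = 0.834 and 0.670).

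At Monash, edgeR called 0 of 10 members (0% of all), none had an unadjusted p below 0.05, 56 of the 751 miRNAs did and DESeq2 called 0 members, with a median over the members of 0.01. A test of whether the injury effect differed among the sites called 0 of 10 members in edgeR (1.07% of all), 1 had an unadjusted p below 0.05 and DESeq2 called 0. That one was miR-30e-5p, with an edgeR adjusted p = 0.334.

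The third comparison asked whether the level at 48 h differed between rats that later did and did not develop epilepsy. Between TBI+ and TBI−, edgeR called 0 of 10 members (0% of all), none had an unadjusted p below 0.05, 18 of the 751 miRNAs did and DESeq2 called 0. The log2 fold changes ran from −0.31 for miR-30b-5p to 0.41 for miR-30c-1-3p, with a median of −0.07 against 0.00 for all miRNAs. Fitted over the 3 sites together, no member separated the outcomes.

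Within sites the outcomes did separate for rare 3p strands, in opposite directions. miR-30c-1-3p, the 3p strand of Mir30c1, had 82.4 and 72.1 CPM in the 2 Monash TBI+ rats and 19.6, 16.0 and 28.2 CPM in the 3 TBI− rats. At UCLA it had 35.4, 28.2 and 21.4 CPM in TBI+ and 82.4, 47.2 and 93.4 CPM in TBI− rats. Every TBI+ rat was above every TBI− rat at Monash and below every one at UCLA. At UEF the groups overlapped, with 92.4, 68.1, 42.2 and 114 CPM in TBI+ and 43.2 to 55.1 in TBI− rats. The site's own sham rats lay between the outcomes at Monash, at 31.9 to 37.5 CPM, and at UCLA the sham rats, at 59.2 to 74.2 CPM, lay above TBI+ and within the range of TBI−. Counts behind these values were 45 to 237 per Monash or UCLA rat.

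A test of whether the TBI+ against TBI− difference varied among the sites was added after these values had been seen. edgeR called 2 of 10 members, miR-30c-1-3p (adjusted p = 0.000105) and miR-30b-3p (adjusted p = 0.0105), and 4 had an unadjusted p below 0.05. Of all miRNAs tested it called 68, or 9.05%, so the pattern was not particular to the family. DESeq2 called the same 2 members. With library totals edgeR also called miR-30c-2-3p (adjusted p = 0.0121). For Monash minus UCLA, edgeR called 2 of 10 members (15.6% of all), while DESeq2 called 3, library totals 3, the fit without UEF sham 3 and UEF TBI− 2 called 4, and fits with 1 rat left out called 1 to 4. It was 1 without Monash TBI− 1, Monash TBI+ 2, UCLA TBI− 2 or UCLA TBI− 3, and 4 without UEF sham 3 or UEF TBI− 2. miR-30c-1-3p had a difference of 3.24 ± 0.50 on the log2 scale (2.23 to 4.26, edgeR adjusted p = 2.87e-05) and miR-30b-3p of 1.92 ± 0.63 (edgeR adjusted p = 0.0366). miR-30c-2-3p was at 1.52 ± 0.55 and miR-30e-5p at −1.70 ± 0.64 (edgeR adjusted p = 0.0576 and 0.0667). Leaving out each rat in turn, the difference of miR-30c-1-3p stayed between 3.05 and 3.61 and was called by the test among sites in 29 of 29 fits.

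Taken site by site, the same model called 2 of 10 members at Monash (8.52% of all), 1 of 10 at UCLA (6.66% of all) and 0 of 10 at UEF (0% of all), where 2 members and 17 of all miRNAs had an unadjusted p below 0.05 in edgeR and DESeq2 was not run. At Monash, TBI+ exceeded TBI− by 1.86 ± 0.37 for miR-30c-1-3p (edgeR adjusted p = 0.00145) and by 1.79 ± 0.46 for miR-30b-3p (edgeR adjusted p = 0.0161). At UCLA, miR-30c-1-3p was at −1.39 ± 0.34 (edgeR adjusted p = 0.00996). The 2 members at UEF were miR-30c-1-3p, at 0.64 ± 0.28, and miR-30b-3p, at −0.75 ± 0.36 (edgeR adjusted p = 0.997 for each). The sign of miR-30c-1-3p was the same on the share scale at Monash and at UCLA.

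The other 3 members of this set were less firm. miR-30b-3p had 32.6 and 63.7 CPM in Monash TBI+ and 10.9 to 18.2 CPM in Monash TBI− rats, and its call among the sites was lost without Monash TBI+ 2 (edgeR adjusted p = 0.182). At UCLA its groups overlapped, with 9.46 to 30.4 CPM in TBI+ and 17.6 to 23.2 in TBI− rats. The log2 fold change there was −0.13 ± 0.43. miR-30c-2-3p, the 3p strand with the same seed as miR-30c-1-3p, had 55.7 to 66.4 CPM in Monash TBI+ and 37.1 to 43.6 in TBI− rats, but 14.6 to 30.5 and 39.4 to 48.8 CPM at UCLA. miR-30e-5p went the opposite way, with 3422 to 3678 CPM in Monash TBI+ and 5123 to 7883 in TBI− rats, and 6018 to 9256 and 3121 to 5268 CPM at UCLA. In all, 4 of 10 members had TBI+ and TBI− groups that did not overlap, in opposite directions, at a pair of sites, as did 136 of the 751 miRNAs (18.1%).

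These comparisons rest on small groups, and the libraries differed with them. Monash TBI+ held 2 rats with totals of 1320300 and 1722453 counts and TMM factors of 1.23 and 1.39, against 2343627 to 3395469 counts and factors of 0.805 to 1.14 in Monash TBI−. At UCLA the factors were 0.718 to 0.968 in TBI+ and 0.840 to 1.17 in TBI− rats. The log2 ratio of miR-451-5p to miR-23a-3p was −2.84 to −2.34 in Monash TBI+ and −2.88 to −2.38 in Monash TBI− rats, and −2.37 to −1.68 and −2.38 to −1.06 in the same groups at UCLA. The liver marker miR-122-5p did not overlap between the outcomes at Monash, where it took 9.07 to 9.71% of counts in TBI+ and 2.04 to 6.17% in TBI− rats. At UCLA it took 1.07 to 1.55% and 0.634 to 2.27%, and the part of liver RNA was not tested. With library totals alone, which moved the median of all miRNAs for Monash minus UCLA from −0.10 to 0.68, the difference of miR-30c-1-3p was 4.07 (edgeR adjusted p = 0.00142), and the part of depth and scaling in its size was not tested.

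**Figure D4:**
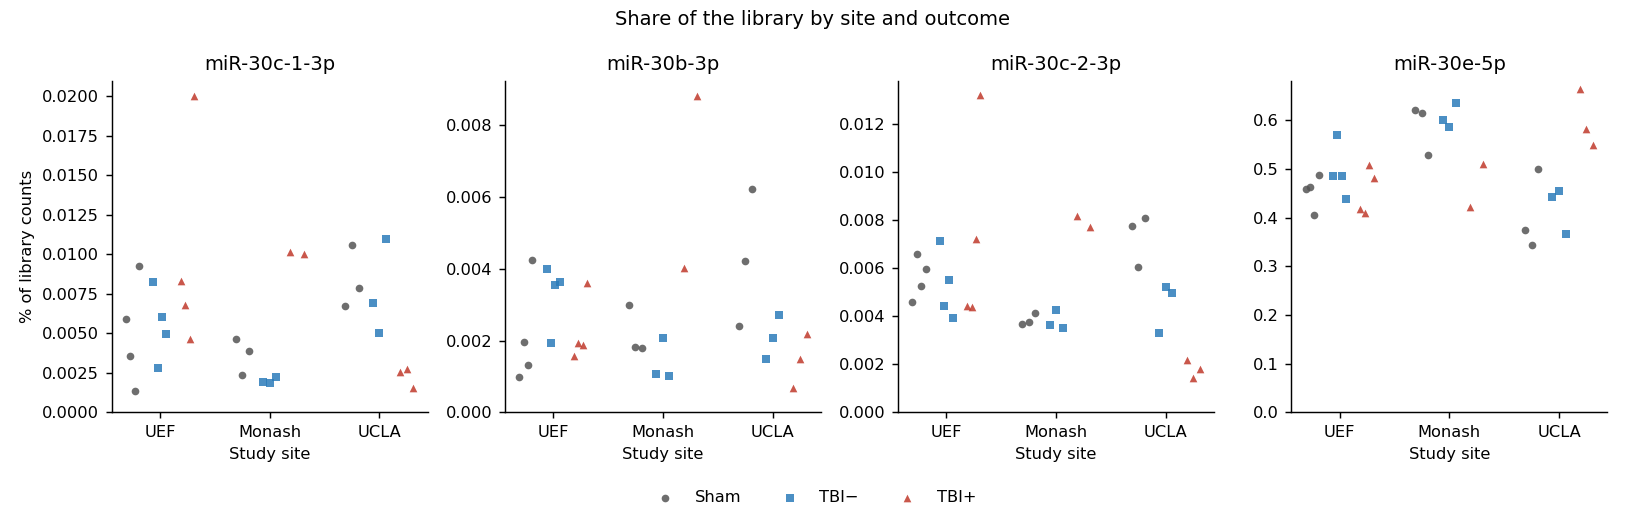
Share of all library counts (%, linear axis from 0) of miR-30c-1-3p, miR-30b-3p, miR-30c-2-3p and miR-30e-5p in each rat by study site, with grey circles for sham, blue squares for TBI− and red triangles for TBI+. For miR-30c-1-3p the TBI+ rats are at 0.00999 to 0.0101% at Monash, above TBI− (0.00183 to 0.00227%), and at 0.00154 to 0.00273% at UCLA, below TBI− (0.00502 to 0.0110%).

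The ratio of the 5p to the 3p strand of one hairpin compares 2 counts within a library and needs no scaling factor. It was steady. The geometric mean of the ratio of counts was 22.2 for miR-30a-5p to miR-30a-3p over 29 rats (16.6 to 28.3) and 21.4 for miR-30e-5p to miR-30e-3p (16.5 to 27.3). The log2 ratio for miR-30a was 4.35 ± 0.21 in sham (n = 10) and 4.54 ± 0.20 in TBI rats (n = 19), a site-weighted difference of 0.18 (exact permutation test within sites, two-sided, p = 0.00761, adjusted over 20 tests p = 0.0761). For miR-30e it was 4.32 ± 0.24 and 4.47 ± 0.18, a difference of 0.15 (exact permutation p = 0.0450, adjusted p = 0.150). Both ratios were higher in TBI rats on average, by no more than the SD of a group over all sites, which includes differences between sites. Neither passed adjustment.

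The same sign was seen at each site. For miR-30a the TBI minus sham difference was 0.18 at UEF (exact permutation p = 0.107), 0.11 at Monash (exact permutation p = 0.304) and 0.26 at UCLA (exact permutation p = 0.107), and for miR-30e it was 0.14 (exact permutation p = 0.313), 0.06 (exact permutation p = 0.625) and 0.25 (exact permutation p = 0.0714). At UCLA, 5 of 6 TBI rats were above every sham rat in both ratios. The differences there exceeded the SD of TBI and of sham rats, 0.221 and 0.0858 for miR-30a and 0.182 and 0.102 for miR-30e. At UEF and Monash they did not exceed both SDs. The miR-30a ratio was also 0.29 higher at UEF than at UCLA (exact permutation p = 0.00408, adjusted p = 0.0761). TBI+ and TBI− differed by 0.09 and 0.01 (exact permutation p = 0.275 and 0.855). Of the 20 tests, which included the ratios of miR-30b-5p to miR-30d-5p and of miR-30c-5p to miR-30e-5p with an unadjusted exact permutation p of at least 0.191, 0 passed adjustment, 6 had an unadjusted p below 0.05, and 1 to 3 passed when any 1 of 6 rats was left out.

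**Figure D5:**
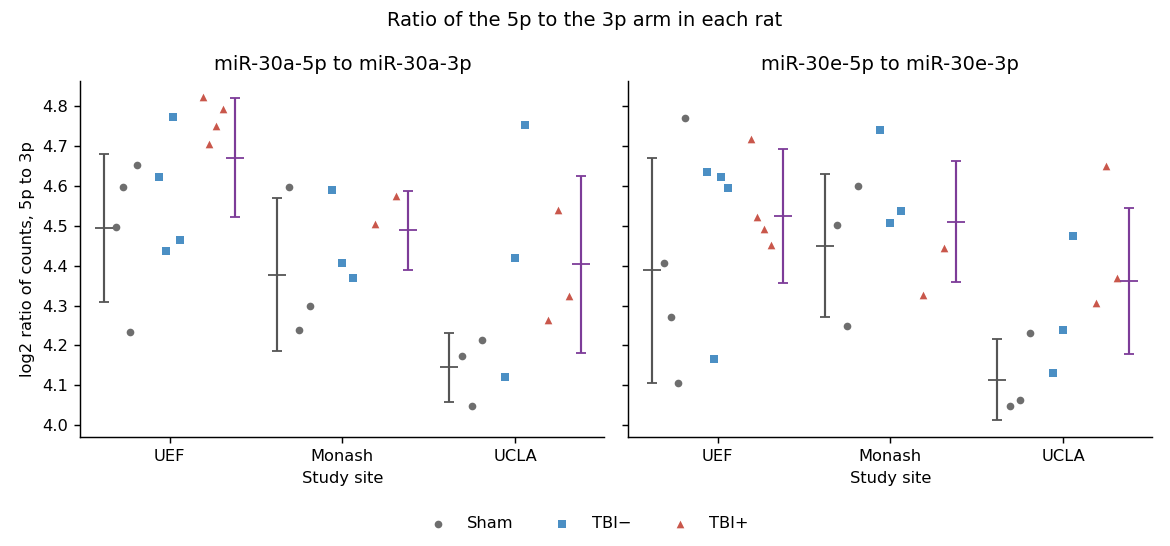
log2 ratio of 5p to 3p counts of miR-30a (left) and miR-30e (right) in each rat, by study site, with grey circles for sham, blue squares for TBI− and red triangles for TBI+. Bars are mean ± SD of sham (grey) and of all TBI rats (purple), and the purple bar is higher at each site, by 0.26 for miR-30a at UCLA.

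The abundant members varied together over the rats on the TMM scale. The 10 pairs of 5p members had Spearman correlations of their log2 CPM of 0.64 to 0.87 (median 0.75, 29 rats), and the arms of one hairpin had 0.90 for miR-30a and 0.93 for miR-30e. Over all 45 pairs the range was −0.73 to 0.93, with the lowest between miR-30e-5p and miR-30c-1-3p. On the share scale the 5p pairs ran from −0.00099 to 0.69 (median 0.22). All values of a rat share its library and TMM factor, so these are descriptions only. Outside the family, the miRNAs closest to the mean of the 5p members were miR-3587 (0.95), miR-3556b (0.90), miR-29c-3p (0.88), miR-29a-3p (0.88) and miR-374-5p (0.88), where the median over 740 others was −0.14. With library totals these were 0.78, 0.77, 0.70, 0.75 and 0.59.

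Among the miRNAs with a RefSeq sequence, 1 outside the family carried the seed of its 5p strands, miR-384-5p.

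miR-384-5p: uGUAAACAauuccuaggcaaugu

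It was far scarcer than the abundant 5p members, at 3.69 to 82.4 CPM. edgeR did not call it between TBI and sham (log2 fold change 0.39, adjusted p = 0.693), between UEF and Monash (0.68, adjusted p = 0.184) or in the other comparisons planned.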

How the data were processed

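Small RNA was sequenced from plasma of 29 rats (QIAseq miRNA kit, single-end reads). The authors removed adapters with cutadapt and aligned the reads to Rnor_6.0 with bowtie (per the submitters' processing notes), and miRBase gave the names. The deposited table gives raw counts of 754 miRNAs in each rat, without normalization by the authors, and whether reads of one molecule were merged is not given in the sources used here. Each column was matched to its rat by the label's name. The family and all marker lists were chosen with earlier results of these data known.

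Differences in counts were fitted in edgeR 4.0.16, run in R 4.3.3 with limma 3.58.1. A minimum count of 10 in filterByExpr left 751 miRNAs and all 10 members. The fit used TMM factors, a quasi-likelihood F test on site and outcome, and Benjamini-Hochberg adjustment over all 751 with a threshold of 0.05. TBI against sham was the mean of the TBI− and TBI+ coefficients. Injury by site used 1 mean per site and injury, and outcome by site, added after the data were seen, 1 mean per site and outcome. Strand ratios used a pseudocount of 0.5 and two-sided exact permutation tests (Python 3.11.15, scipy 1.17.1, numpy 2.4.6, pandas 2.3.3), adjusted over 20 tests. Figures were drawn with matplotlib 3.10.9. The scripts were tested on simulated data. Members were named by their stem, others by their seed or by the 5 highest Spearman correlations, and marker miRNAs where a value is given.

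Alternatives were DESeq2 1.42.0, its size factors in edgeR, library totals, no filter, at least 100 counts in every rat, a replicate block, the log2 ratio of miR-451-5p to miR-23a-3p as covariate, a pseudocount of 1, leaving out each rat, site or injury group, and a model of site and injury alone. Leaving out UEF sham 3 and UEF TBI− 2 together was added after the data were seen. The common biological coefficient of variation was 0.475, and the totals in the report set the counting precision. The labels give 1 sample per rat, and nothing beyond that describes litters or days. RefSeq tables of GRCr8 gave sequences and coordinates, and no coordinate was converted between builds.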

Additional observations from a re-analysis of the deposited data

Results flagged for a closer look

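Among 70 groups of 4 to 10 rats examined on TMM-scaled CPM, 16 held a rat far from the others by Dixon's gap criterion. The groups share rats, libraries and TMM factors, so the criterion's nominal rate of about 1 in 20 does not apply to them. The marks fell on 3 rats. UEF sham 3 stood above the other sham rats in 7 members, with 66466 CPM of miR-30d-5p, 29005 of miR-30a-5p, 4189 of miR-30c-5p, 1541 of miR-30a-3p (also among the UEF sham rats), 1253 of miR-30b-5p, 706 of miR-30e-3p and 157 of miR-30c-2-3p. UEF TBI− 2 stood above the other UEF TBI rats with 8851 CPM of miR-30e-5p and 493.3 of miR-30e-3p, above the TBI− rats with 68.8 of miR-30c-2-3p, and above both groups with 3909 of miR-30c-5p and 830 of miR-30b-5p. These 2 libraries had the lowest TMM factors, 0.333 and 0.644, which were not tested as the source of the values. By share of counts UEF sham 3 was the highest sham rat for miR-30a-5p (0.967%), miR-30a-3p (0.0513%) and miR-30b-5p (0.0418%). On that scale it was not the highest for miR-30d-5p (2.22%), miR-30c-5p (0.140%), miR-30e-3p (0.0235%) or miR-30c-2-3p (0.00525%). Monash TBI+ 2 stood above the other TBI+ rats with 63.7 CPM of miR-30b-3p.

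TBI+ and TBI− rats did not overlap, in opposite directions, at a pair of sites for 4 of 10 members, as for 136 of the 751 miRNAs tested (18.1%). The difference of mean CPM, TBI+ minus TBI−, was 55.9 at Monash and −46.0 at UCLA for miR-30c-1-3p, 21.7 and −20.0 for miR-30c-2-3p, and −2835 and 3411 for miR-30e-5p. For miR-30b-3p it was −12.8 at UEF and 34.3 at Monash, and at UEF the groups overlapped on the share scale. The difference among sites was tested after these values had been seen, and edgeR called miR-30c-1-3p (adjusted p = 0.000105) and miR-30b-3p (adjusted p = 0.0105) but neither miR-30c-2-3p nor miR-30e-5p. The same test called 9.05% of all miRNAs.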

How the results depend on the processing

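The 10 comparisons planned called 0 members, and the count changed in 5 of them under another setting. For any site, library totals called 2 members and the filter at 100 counts in every rat, which leaves 188 miRNAs and 7 members, called 3. For UEF against Monash that filter called 1, for UEF against UCLA DESeq2 called 3, library totals 3 and the filter 4, for TBI against sham the filter called 1 (miR-30a-3p), and for TBI against sham at UEF DESeq2 called 1 and the filter 2. For most counts of members under other settings, here and above, the share of all miRNAs called is not given. Such counts cannot be read as particular to the family. The filter leaves fewer miRNAs in the adjustment, and the fit before adjustment changed too. For miR-30a-5p between UEF and UCLA the SE went from 0.28 to 0.15. Its unadjusted edgeR p went from 0.0123 to 3.65e-05. For the strand ratios, leaving out UEF sham 3 and UEF TBI− 2 together let 3 of 20 pass. For the added test of TBI+ against TBI− by site, the filter called 0 members, since it removes both miR-30c-1-3p and miR-30b-3p. Leaving out each rat in turn gave 0 to 1 members for any site, 0 to 3 for UEF against UCLA, 0 to 2 for TBI against sham at UEF, 0 to 3 for the strand ratios, 1 to 3 for TBI+ against TBI− by site, and 0 in each of the other comparisons. The rats whose absence let strand ratios pass were UEF sham 3 (1), UEF sham 4 (3), UEF TBI− 2 (2), UEF TBI− 4 (2), Monash sham 1 (2) and UCLA TBI− 3 (1), and for any site they were UEF TBI+ 4 (1) and UCLA TBI+ 1 (1). Of 642 alternatives of 20 single values, 598 kept their side of the threshold, 37 passed where the reported value had not, 7, all of miR-30b-3p, no longer passed, and 0 reversed a called direction. The causes were not tested. Over all miRNAs, DESeq2 made more than 1.5 times as many calls as edgeR for TBI against sham (25 and 9), at UEF (49 and 29), Monash (5 and 0) and UCLA (7 and 2), for the TBI effect by site (17 and 8) and for TBI+ against TBI− by site (109 and 68). The replicate block called 31 miRNAs and the reported fit 75 for UEF against Monash, 46 and 70 for UEF against UCLA, 5 and 9 for TBI against sham, and 0 and 8 for the TBI effect by site. Library totals called 33 for UEF against Monash, 48 at UEF, 9 at UCLA and 15 for the TBI effect by site. The red cell ratio in the model called 4 for TBI against sham and 0 at UCLA and by site, and the fit without UEF sham 3 and UEF TBI− 2 called 1 for TBI against sham, 10 at UEF and 0 by site. With 1 rat left out, the count for TBI against sham at UEF ran from 14 without UEF sham 3 to 56 without UEF sham 1, for TBI against sham from 1 without UEF sham 4 to 16 without Monash sham 2, and for UEF against Monash from 39 without Monash TBI− 3 to 117 without Monash TBI+ 2. For the TBI effect by site it ran from 0, without UEF sham 3 among others, to 10, without Monash sham 2 or UEF TBI− 4. Rats with the same replicate number did not deviate together (mean correlation −0.016 over 103 pairs, 0.006 over 269 other pairs), so they share only a number. With a replicate block edgeR called 0 members in the 10 planned comparisons (lowest adjusted p = 0.0506, UEF against UCLA) and 2 for TBI+ against TBI− by site, and the 4 ratio differences of TBI against sham were 0.18, 0.15, −0.26 and −0.09. Counts of 21 to 328 per rat limit the 3 rarest members, and 2 to 4 rats per site and outcome limit what can be found within a site.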
